A study of Mus musculus with 26 samples.

Results

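Interleukin-10 (IL-10) is the main deactivating cytokine of macrophages, and its gene Il10 lies on mouse chromosome 1 beside Il19, Il20 and Il24, which encode relatives of the same cytokine family. The 6 genes described here are these 4 cytokine genes together with Il10ra, which encodes the ligand-binding chain of the IL-10 receptor, and Il10rb, which encodes its shared second chain. They were followed in Kupffer cells, which are the macrophages that reside in liver sinusoids, by ATAC-seq, an assay in which a transposase cuts and tags open DNA. A peak, a region of open chromatin, belonged to one of these genes when the deposited annotation named that gene as the nearest transcription start. This gave 50 of 96238 peaks of the inbred strains (Il10 23, Il10rb 16, Il10ra 8, Il20 2, Il19 1 and Il24 0) and 123 of 213225 autosomal peaks of the hybrid (Il10 58, Il10rb 37, Il10ra 18, Il19 5, Il20 3 and Il24 2). For 38 of the 50 inbred peaks, a hybrid peak covered at least 50% of both. Peaks are named by gene and by the distance in bp of the peak centre from the annotated start, so that Il10 -126 lies just upstream of Il10.

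Macrophages make IL-10 after bacterial lipopolysaccharide (LPS) engages TLR4, and the secreted cytokine returns to the same cells through IL10RA and IL10RB. These chains carry the kinases JAK1 and TYK2, which activate STAT3, and STAT3 target genes then restrain inflammatory transcription. IL-19, IL-20 and IL-24 signal through other receptor pairs that contain IL20RB, while IL10RB also serves the receptors for IL-22 and the lambda interferons. Mice that lack IL-10 or its receptor develop inflammation of the gut.

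The mice were males of 8 to 12 weeks, and the sample labels give overnight fasting for LPS and control mice alike. LPS animals received 0.1 mg/kg by intraperitoneal injection 2 h before collection, and control animals were not injected. The inbred groups were 3 mice in C57BL/6J LPS, 2 in BALB/cJ LPS and 4 in each of A/J control, C57BL/6J control and BALB/cJ control. The numbers of the LPS groups follow the sample labels and the table's column names, and a legend of the study gives them the other way round. CB6F1/J mice, the offspring of BALB/cJ and C57BL/6J parents in which both alleles share each nucleus, formed the groups CB6F1/J LPS (n = 5) and CB6F1/J control (n = 4). Kupffer cells were sorted from the non-parenchymal fraction of perfused, digested livers with flavopiridol, a transcription inhibitor, in the perfusion and digestion.

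Libraries held 2.08 to 7.54 M tags in the inbred peaks, except that BALB/cJ control replicate 4 held 47.2 M. C57BL/6J LPS replicate 1 stood apart from the other C57BL/6J LPS libraries. It had 15.6% of its tags in peaks, against 28.8 and 29.3% in replicates 2 and 3. Over the 15164 peaks called higher in BALB/cJ LPS, its median log2 ratio to the C57BL/6J control mean was 0.63, against 1.50 and 1.65 in replicates 2 and 3. The peaks called after LPS in C57BL/6J are therefore also counted without replicate 1. Library names carry dates. All control libraries shared the first date, all LPS libraries had later dates, and these differed between BALB/cJ and C57BL/6J, so LPS and date cannot be told apart, nor can strain and date among LPS libraries. Promoter peaks were present for 12 of 12 Kupffer cell marker genes. The summed normalised count of these promoters was 851 to 1201 in C57BL/6J LPS and 791 to 885 in BALB/cJ LPS, against 1412 to 1546 in C57BL/6J control and 1388 to 1643 in BALB/cJ control. Of 5 monocyte markers 1 had a promoter peak (Plac8), and its normalised count was 21.1 to 34.0 in C57BL/6J LPS and 6.10 to 29.0 in BALB/cJ LPS, against 6.65 to 18.2 in C57BL/6J control and 1.32 to 3.90 in BALB/cJ control. Of 9 lymphocyte markers 1 had a promoter peak, with no library above 11.0. Of 6 hepatocyte markers 1 had a promoter peak (Ass1), at 11.2 to 20.7 in C57BL/6J LPS and 6.97 to 14.9 in BALB/cJ LPS, against 4.81 to 8.70 in C57BL/6J control and 6.63 to 9.40 in BALB/cJ control, and Alb had none. The 3 of 7 sinusoidal endothelial markers with a promoter peak (Kdr, Lyve1 and Tek) summed to 25.3 to 40.6 in C57BL/6J LPS and 43.1 to 57.5 in BALB/cJ LPS, against 17.7 to 21.3 in C57BL/6J control and 23.7 to 92.6 in BALB/cJ control. The 2 of 6 neutrophil markers with one (S100a8 and Camp) summed to 32.3 to 70.1 in C57BL/6J LPS and 46.2 to 57.2 in BALB/cJ LPS, against 30.7 to 67.8 in C57BL/6J control and 65.4 to 94.0 in BALB/cJ control. The 2 went opposite ways. Camp averaged 25.8 in C57BL/6J LPS and 14.0 in BALB/cJ LPS, against 4.27 in C57BL/6J control and 3.22 in BALB/cJ control. S100a8 averaged 27.0 in C57BL/6J LPS and 37.6 in BALB/cJ LPS, against 43.8 in C57BL/6J control and 74.5 in BALB/cJ control. Ly6g had no promoter peak. The part of these shifts in the results was not tested, and in bulk samples more open cells and more accessibility per cell cannot be told apart.

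The sequences of the peaks on which the results turn are printed from the mm10 (GRCm38) plus strand, with letters that match a searched motif in capitals. The first set holds a pair of distal upstream elements that opened after LPS and a downstream element that differed between strains. The peaks Il10 -21945 (chr1:130997800-130998000), Il10 -18829 (chr1:131000916-131001116) and Il10 +30394 (chr1:131050139-131050339) are intergenic.
Il10 -21945: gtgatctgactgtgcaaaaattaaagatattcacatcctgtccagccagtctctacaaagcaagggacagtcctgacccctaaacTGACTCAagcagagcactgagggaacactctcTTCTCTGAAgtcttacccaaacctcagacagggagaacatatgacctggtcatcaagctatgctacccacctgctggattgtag
Il10 -18829: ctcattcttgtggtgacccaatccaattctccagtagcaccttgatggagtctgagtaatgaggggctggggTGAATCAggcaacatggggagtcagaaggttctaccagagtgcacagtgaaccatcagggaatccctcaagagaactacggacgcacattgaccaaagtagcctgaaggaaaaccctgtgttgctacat
Il10 +30394: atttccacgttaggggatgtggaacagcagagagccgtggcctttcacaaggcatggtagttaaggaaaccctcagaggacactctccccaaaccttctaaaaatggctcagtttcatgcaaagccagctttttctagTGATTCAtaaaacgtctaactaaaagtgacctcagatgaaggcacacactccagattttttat

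In Il10 -21945, Il10 -18829 and Il10 +30394 the capitals TGANTCA match AP-1, the motif of the JUN and FOS families, and in Il10 -21945 the run TTCTCTGAA matches TTCNNNGAA, the STAT motif. The second set starts with the peak upstream of the annotated Il19 start that opened in the hybrid (chr1:130940378-130940578). It ends with the peak assigned to Il10rb that opened in every strain treated (chr16:91393267-91393467), which lies inside the neighbouring gene Ifnar2. In the Il19 peak the capitals are the reverse complements of TGCTGA, part of the MAF element, and of GGAAGT, the PU.1 core, and in the Il10rb peak they match AP-1.
Il19 -363: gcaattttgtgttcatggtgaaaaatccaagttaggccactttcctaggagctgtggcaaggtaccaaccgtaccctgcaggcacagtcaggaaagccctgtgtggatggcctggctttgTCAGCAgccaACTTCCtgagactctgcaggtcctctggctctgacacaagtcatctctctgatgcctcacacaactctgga
Il10rb -12868: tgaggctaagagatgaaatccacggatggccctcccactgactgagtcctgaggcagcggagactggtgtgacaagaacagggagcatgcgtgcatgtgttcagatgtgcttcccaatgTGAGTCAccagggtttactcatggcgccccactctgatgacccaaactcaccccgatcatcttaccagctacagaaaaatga

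Across the 50 inbred peaks, searched on both strands over 201 bases each, 17 held TGANTCA. For the 23 Il10 peaks the count was 10 (43.5%), against 46.9% of all peaks called higher in C57BL/6J LPS and 14.3% of all peaks. The PU.1 core was in 13 of the 50 (34.9% of all peaks), TGCTGA, which can overlap an AP-1 match, in 8 (18.6%), the 10-letter NF-kB motif in 5 (4.37%), the STAT motif in 5 (6.04%), the IRF motif in 3 (4.30%), the NFIL3 motif TTACNTAA in 1 (2.00%) and the CRE TGACGTCA in 0 (0.826%). A match is a description of the letters only.

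After LPS the Il10 locus gained accessibility at distal elements on both sides of the gene. In both inbred strains it lost accessibility at the peak just upstream of its start. A normalised count is the tag count scaled to the common library size, and a peak was called when edgeR's adjusted p was under 0.05 and the absolute log2 ratio was over 1. In C57BL/6J, 18 of 50 peaks tested were called, 15 higher and 3 lower in LPS than in control, where 12.3% of all tested peaks were called higher and 8.07% lower. In BALB/cJ, 15 of 48 were called higher and 4 lower, against backgrounds of 16.2% higher and 11.3% lower. The median log2 ratio was 0.58 for these peaks against −0.03 for all tested peaks in C57BL/6J, and 0.74 against −0.07 in BALB/cJ. Il10 itself supplied most of the gains, with 11 of its 23 peaks higher and 1 lower in C57BL/6J and 11 of 21 higher and 1 lower in BALB/cJ.

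**Figure D1:**
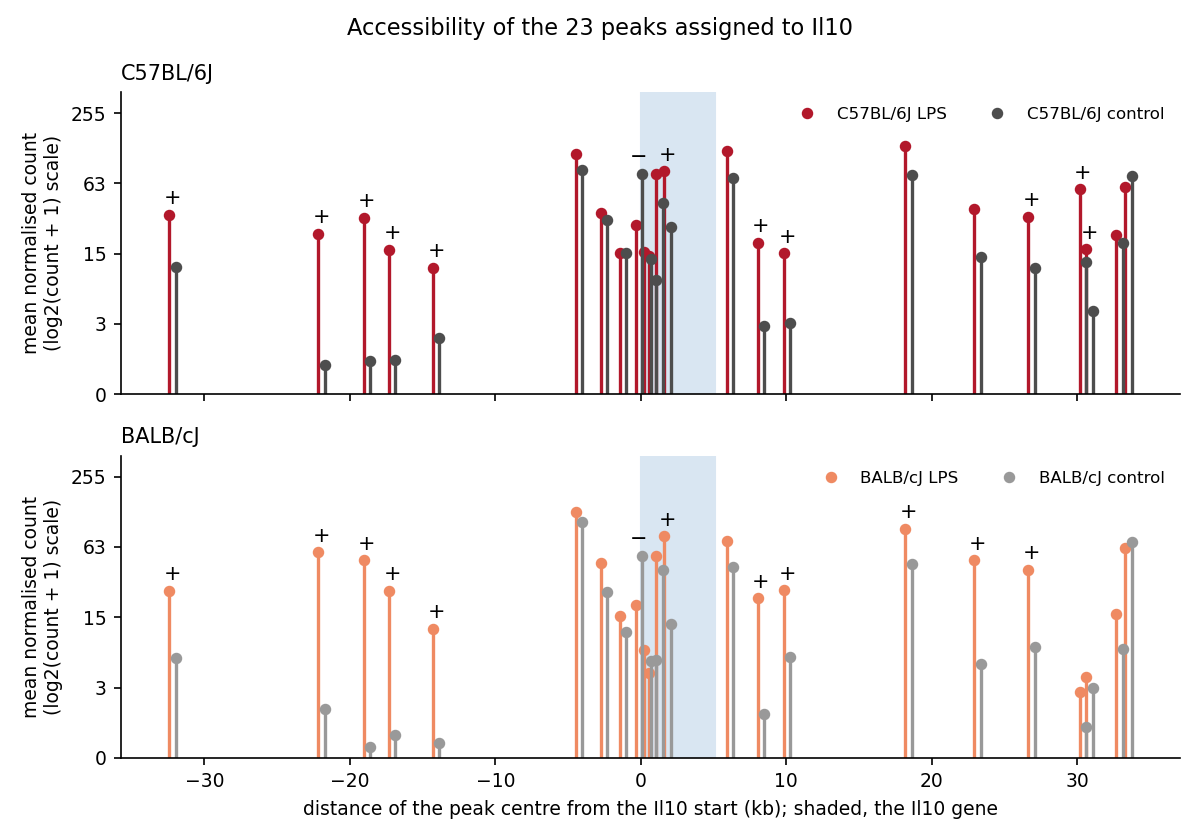
Mean normalised count, on a log2(count + 1) scale, of the 23 Il10 peaks against the distance of the peak centre from the Il10 start in kb, for C57BL/6J in one panel and BALB/cJ in the other, each with LPS and control. Plus and minus signs mark peaks called higher or lower after LPS. The gains (11 in each strain) lie on both sides of the gene and inside it. The loss (1 in each strain) lies just upstream of the start.

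The clearest gains lay upstream of the gene. Il10 -18829 had normalised counts of 7.02, 29.7 and 58.1 in C57BL/6J LPS, against 1.16, 0, 2.6 and 0 in C57BL/6J control, and 30.5 and 66.0 in BALB/cJ LPS, against 0, 0, 0 and 0.921 in BALB/cJ control. LPS and control libraries did not overlap in either strain, and the C57BL/6J LPS library with the lowest value was replicate 1. The log2 ratio was 4.88 ± 0.75 (SE, edgeR adjusted p = 1.17e-05) in C57BL/6J and 6.06 ± 0.73 (adjusted p = 1.88e-07) in BALB/cJ.

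Il10 -21945 had 2.81, 18.7 and 47.0 in C57BL/6J LPS, against 0.58, 0, 2.6 and 0 in C57BL/6J control. In BALB/cJ it had 52.3 and 60.7 after LPS, against 0, 3.9, 1.34 and 1.29 in control. This peak, too, was close to closed in every control library, and replicate 1 of C57BL/6J LPS lay just above the highest control. Its log2 ratio was 4.79 ± 0.81 in C57BL/6J (edgeR adjusted p = 4.6e-05) and 5.12 ± 0.69 in BALB/cJ (adjusted p = 9.29e-07). Il10 -17089, between these elements and the gene, had 1.4, 19.5 and 27.9 in C57BL/6J LPS and 0, 0, 2.6 and 1.33 in C57BL/6J control, so that replicate 1 fell within the controls. The log2 ratio there was 4.24 ± 0.95 in C57BL/6J and 4.89 ± 0.88 in BALB/cJ. The calls at Il10 -21945, Il10 -18829 and Il10 -17089 held in both strains when each library was left out in turn, except that Il10 -17089 fell under the minimum count in 1 of the 6 BALB/cJ fits. The log2 ratios of these 3 peaks in those fits were 3.57 to 5.94 in C57BL/6J and 4.68 to 8.46 in BALB/cJ.

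**Figure D2:**
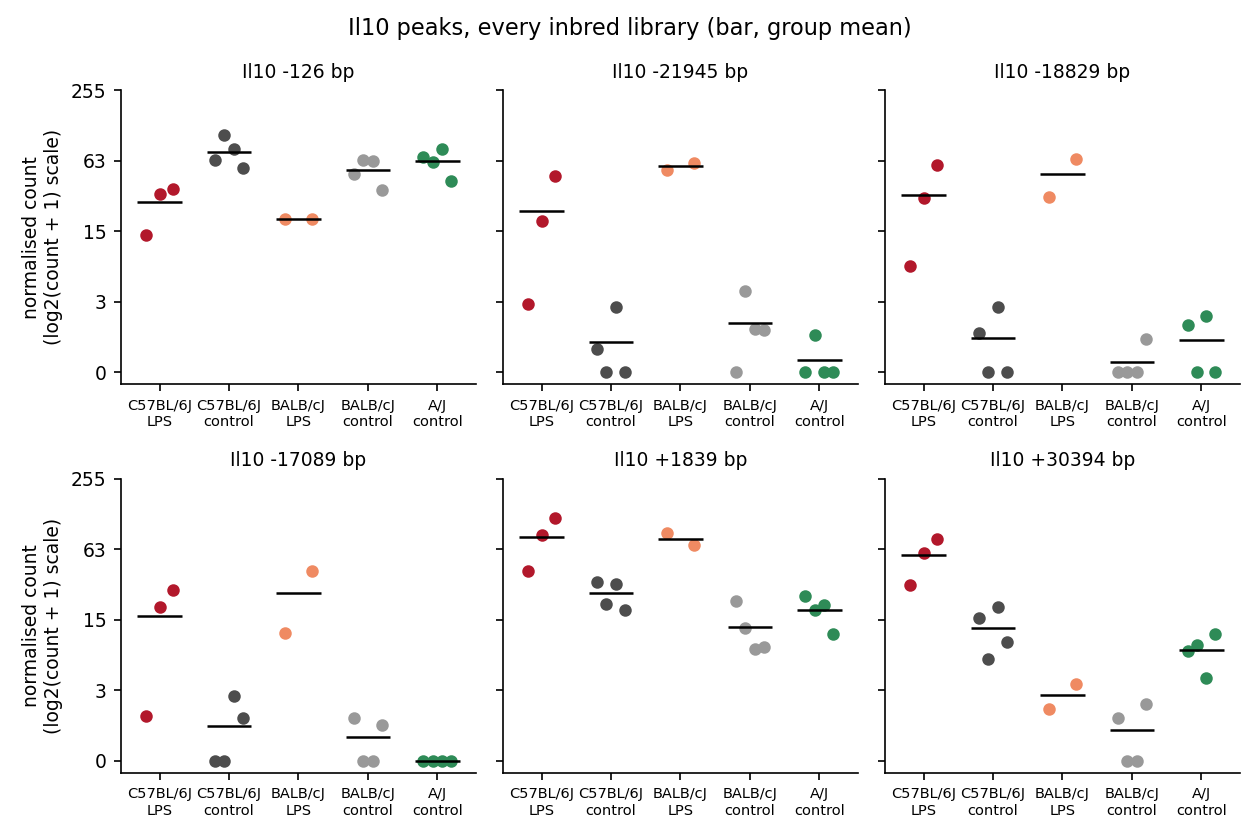
Normalised count, on a log2(count + 1) scale, in each inbred library at 6 Il10 peaks, by group: Il10 -126 and the 5 other Il10 peaks of smallest p for LPS in C57BL/6J. Each point is 1 library and each bar a group mean. At Il10 -21945 and Il10 -18829 the LPS libraries stand above the controls, while at Il10 -126 they stand below them in both strains.

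The peak just upstream of the start moved the other way. Il10 -126 had 14.0, 32.3 and 35.8 in C57BL/6J LPS, against 64.4, 106, 79.3 and 54.5 in C57BL/6J control, and 19.2 and 19.3 in BALB/cJ LPS, against 48.8, 64.4, 63.1 and 34.9 in BALB/cJ control. All LPS libraries lay below all controls of their strain. The log2 ratio was −1.41 ± 0.32 in C57BL/6J (edgeR adjusted p = 0.00132) and −1.41 ± 0.39 in BALB/cJ (adjusted p = 0.0048), and the BALB/cJ call was lost in 1 of 6 fits that left out a library, BALB/cJ LPS replicate 2. Il10 -4258, the most accessible Il10 peak, was not called after LPS in either strain, with 114 ± 23.1 in C57BL/6J LPS (SD, n = 3) against 83.0 ± 13.1 in C57BL/6J control (n = 4), and 126 ± 3.31 in BALB/cJ LPS (n = 2) against 104 ± 32.6 in BALB/cJ control (n = 4).

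Inside the gene, Il10 +1839 had 40.7, 84.1 and 117 in C57BL/6J LPS, against 33.0, 20.9, 31.2 and 18.6 in C57BL/6J control, and 88.0 and 68.6 in BALB/cJ LPS, against 22.4, 12.7, 8.05 and 8.39 in BALB/cJ control. The groups did not overlap in either strain, and the log2 ratio was 1.62 ± 0.35 (edgeR adjusted p = 0.000715) in C57BL/6J and 2.72 ± 0.40 (adjusted p = 3.39e-06) in BALB/cJ. Downstream, Il10 +8267 had 2.81, 19.5 and 34.2 in C57BL/6J LPS and 1.16, 6.42, 2.6 and 1.33 in C57BL/6J control, where replicate 1 again lay within the controls. Its log2 ratio was 2.92 ± 0.82 in C57BL/6J, a call lost without LPS replicate 3, and 4.90 ± 0.98 in BALB/cJ. Il10 -32187, Il10 +10058 and Il10 +26871 were also called higher in both strains, with C57BL/6J log2 ratios of 1.53, 2.31 and 1.50 and BALB/cJ log2 ratios of 2.17, 2.11 and 2.33. The C57BL/6J calls at Il10 -32187 and Il10 +26871 were lost without C57BL/6J LPS replicate 3, and all 3 BALB/cJ calls were lost without BALB/cJ LPS replicate 2, with Il10 +26871 at up to 2.86 over the BALB/cJ fits. Il10 +23150 and Il10 +18399 passed in BALB/cJ, at 3.67 and 1.08. Over the 6 fits that left out a library, the first was at 2.86 to 5.26 and stayed called, and the second was at 0.86 to 1.19 and lost its call in 2, those without BALB/cJ control replicate 4 or LPS replicate 1. They did not pass in C57BL/6J, at 1.45 and 0.85, and the strain difference in the response was not called at either. At Il10 +23150 it was called, at −3.82 ± 0.81 (edgeR adjusted p = 0.0332), without BALB/cJ control replicate 1. Il10 -14064 had 8.71 and 14.9 in BALB/cJ LPS, against 0.5 tags in 1 BALB/cJ control library and 0 tags in the others, so no fold is given. In C57BL/6J its log2 ratio was 2.33 ± 0.82 (edgeR adjusted p = 0.032), a call that was lost in 5 of 7 fits that left out a library.

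Without C57BL/6J LPS replicate 1, 24 of these peaks were called in C57BL/6J (21 higher and 3 lower) and all 18 of the original calls were among them. The 6 additional peaks were Il10 +6155, Il10 +18399, Il10 +23150, Il10rb +5138, Il10rb +10919 and Il10rb +27475, with log2 ratios of 1.10, 1.14, 1.76, 1.97, 1.69 and 1.26. Without replicate 2 the count was 12, and without replicate 3 it was 9. In BALB/cJ, leaving out LPS replicate 2 gave 11 calls in place of 19. Il10 -18829, Il10 -21945, Il10 -17089, Il10 -126, Il10 +1839, Il10 +10058, Il10 +30394 and Il10rb -12868 were called in each of the 3 C57BL/6J fits.

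Il19 and Il20 encode cytokines that act mainly on epithelial cells. Of their 3 inbred peaks, C57BL/6J had 3 called higher and BALB/cJ 1. The 3 C57BL/6J calls were each lost without LPS replicate 2 and without LPS replicate 3, while the BALB/cJ call held in each of 6 fits that left out a library. Il19 -12576, the only Il19 peak of the inbred table, had 2.81, 15.3 and 15.1 in C57BL/6J LPS, against 1.74, 3.21, 1.3 and 2.66 in C57BL/6J control, and 27.9 and 22.9 in BALB/cJ LPS, against 1.32, 1.95, 4.03 and 2.49 in BALB/cJ control. Only C57BL/6J LPS replicate 1 lay within the range of its controls. The log2 ratio was 2.40 ± 0.70 in C57BL/6J (edgeR adjusted p = 0.00955) and 3.34 ± 0.66 in BALB/cJ (adjusted p = 0.00017). Il20 -7149 averaged 18.5 ± 11.4 in C57BL/6J LPS (SD, n = 3) and 3.78 ± 2.15 in C57BL/6J control (n = 4), with a log2 ratio of 2.29 ± 0.70, and in BALB/cJ the ratio of 1.69 was not called. At Il20 -7453 the log2 ratio was 1.38 ± 0.48 in C57BL/6J and 0.96 in BALB/cJ, where it was not called. The C57BL/6J call was lost in 5 of 7 fits, which gave 1.11 to 2.15. Without BALB/cJ control replicate 2, Il20 -7149 was called in BALB/cJ as well (2.58 ± 0.86, edgeR adjusted p = 0.0186). Il24 had no inbred peak.

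Il10ra, on chromosome 9, lost accessibility at its start. Il10ra +3 had 74.4, 36.5 and 19.1 in C57BL/6J LPS, against 91.6, 108, 112 and 49.2 in C57BL/6J control, and 27.0 and 40.5 in BALB/cJ LPS, against 77.8, 165, 61.7 and 66.2 in BALB/cJ control. The groups overlapped in C57BL/6J, where replicate 1 was the highest LPS library, and not in BALB/cJ. The log2 ratio was −1.12 ± 0.36 in C57BL/6J (edgeR adjusted p = 0.0181, a call lost in 4 of 7 fits that left out a library) and −1.45 ± 0.41 in BALB/cJ (adjusted p = 0.00641, lost without BALB/cJ LPS replicate 1). Il10ra -11913 was also lower in C57BL/6J, with 13.5 ± 6.38 in C57BL/6J LPS (SD, n = 3) and 37.8 ± 11.2 in C57BL/6J control (n = 4) and a log2 ratio of −1.53 ± 0.40, lost as a call without LPS replicate 3. In BALB/cJ the same ratio was −0.62 and was not called. No Il10ra peak of the 8 was called higher in either strain at the settings used throughout, and their median log2 ratio was −0.38 in C57BL/6J and −0.01 in BALB/cJ. With total counts in place of TMM, edgeR called Il10ra -13557 (1.02 ± 0.30, adjusted p = 0.00801) and Il10ra -9184 (1.38 ± 0.52, adjusted p = 0.0397) higher in BALB/cJ, against 0.90 and 1.26 with TMM. Il10ra -13557 was also called there without BALB/cJ LPS replicate 1 (1.24 ± 0.36) or control replicate 4 (1.04 ± 0.33).

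Il10rb, on chromosome 16, lies directly downstream of Ifnar2, which encodes a chain of the type I interferon receptor, and 5 of its 16 assigned peaks lie inside Ifnar2. One of these was the largest gain near either receptor gene. Il10rb -12868 had 8.43, 43.3 and 42.2 in C57BL/6J LPS, against 5.22, 6.42, 0 and 2.66 in C57BL/6J control, and 61.0 and 49.2 in BALB/cJ LPS, against 0, 0.975, 1.34 and 5.07 in BALB/cJ control. LPS and control libraries did not overlap, and the log2 ratio was 3.08 ± 0.61 in C57BL/6J (edgeR adjusted p = 0.000299) and 4.14 ± 0.60 in BALB/cJ (adjusted p = 2.9e-06). The most accessible Il10rb peak, Il10rb -7984, also inside Ifnar2, was not called, with 268 ± 16.7 in C57BL/6J LPS against 321 ± 70.6 in C57BL/6J control (SD, n = 3 and 4) and 253 ± 28.6 in BALB/cJ LPS against 313 ± 20.9 in BALB/cJ control (SD, n = 2 and 4). At the start of the gene, Il10rb +15 had 75.8, 56.0 and 60.5 in C57BL/6J LPS, against 113, 119, 142 and 77.1 in C57BL/6J control, and the log2 ratio of −0.82 was not called because it was under the fold threshold. In BALB/cJ it had 47.9 and 39.6 after LPS, against 65.9, 117, 123 and 81.7 in control, and the log2 ratio was −1.14 ± 0.29 (edgeR adjusted p = 0.00227, lost without LPS replicate 2). The other calls in BALB/cJ were Il10rb +5138 and Il10rb +10919 higher (2.98 and 2.28) and Il10rb +4796 lower (−2.03). Without BALB/cJ LPS replicate 2 the calls at Il10rb +10919 and Il10rb +4796 were lost, and over the fits that left out a library Il10rb +4796 was at −5.05 to −1.10.

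**Figure D3:**
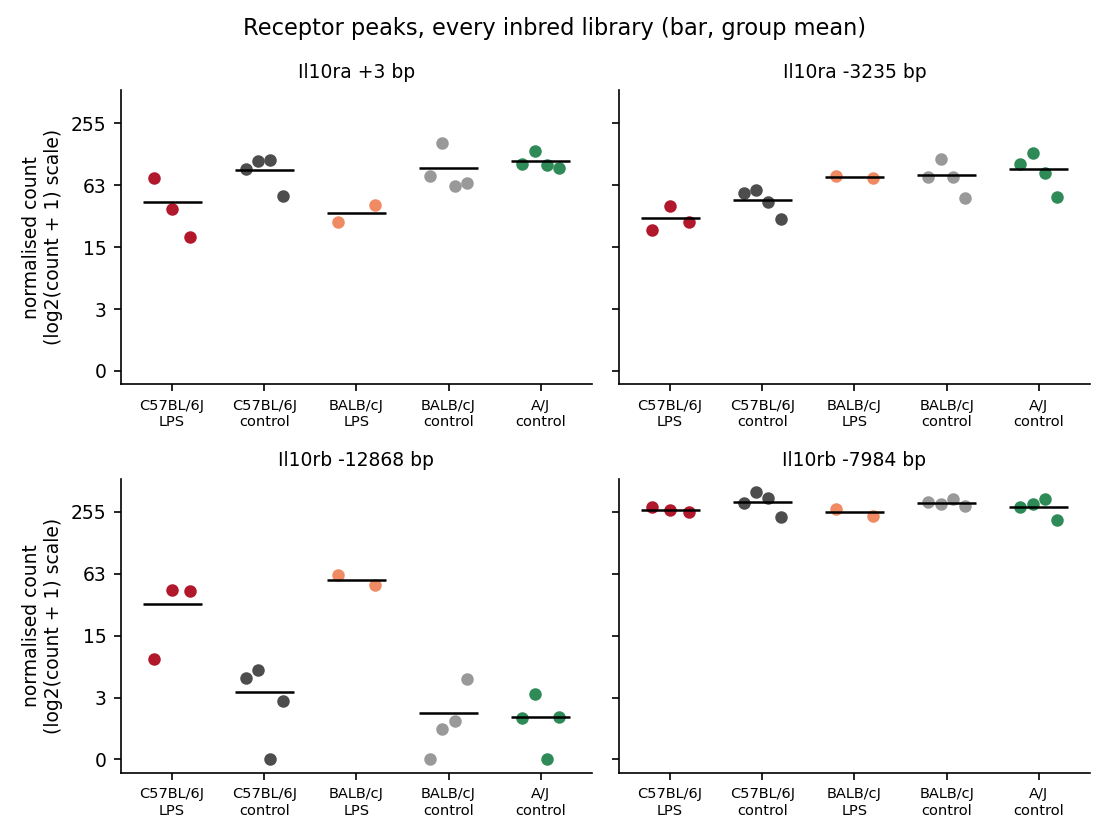
Normalised count, on a log2(count + 1) scale, in each inbred library at 4 receptor peaks, by group. Each point is 1 library. The LPS libraries lie below most controls at Il10ra +3 and above all controls at Il10rb -12868, while at Il10rb -7984 every library lies between 210 and 395.

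The hybrid gave other animals in which to follow the LPS response. With perfectly mapped tags on the C57BL/6J genome, 38 of 123 peaks were higher and 11 lower in CB6F1/J LPS than in CB6F1/J control, where 14.3% of all tested peaks were higher and 10.5% lower. On the BALB/cJ genome the counts were 39 and 11. Il10 had 25 of 58 peaks higher and 1 lower (median log2 ratio 1.15), and Il19, Il20 and Il24 together had 6 of 10 higher and 0 lower (median 2.18, against −0.09 over all tested peaks). Il10ra had 2 of 18 higher and 3 lower, and Il10rb 5 of 37 higher and 7 lower.

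The peaks of the distal upstream elements were again among the most changed. Il10 -18777, which overlaps Il10 -18829, had 283, 339, 276, 252 and 329 in CB6F1/J LPS, against 0, 2.79, 0 and 0 in CB6F1/J control. Il10 -21974 had 321, 317, 238, 304 and 363 in CB6F1/J LPS, against 13.2, 8.38, 12.8 and 24.7 in CB6F1/J control (log2 ratio 4.35 ± 0.28, edgeR adjusted p = 1.26e-12). Both were open in all 5 LPS animals and low in all 4 controls. Downstream, Il10 +23067 had 245, 250, 172, 298 and 235 in CB6F1/J LPS, against 3.76, 5.59, 23.1 and 14.6 in CB6F1/J control (log2 ratio 4.37 ± 0.35), and Il10 +14150, which had no inbred counterpart, had a log2 ratio of 4.40 ± 0.54.

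The finer peak set of the hybrid split the Il10 start. Il10 -293, upstream of the start, had 223, 297, 211, 181 and 238 in CB6F1/J LPS, against 245, 330, 359 and 278 in CB6F1/J control, and was not called (log2 ratio −0.40 ± 0.18). Il10 +112, in the first exon, had 229, 241, 276, 170 and 305 in CB6F1/J LPS, against 116, 134, 115 and 102 in CB6F1/J control, with no overlap (log2 ratio 1.06 ± 0.21, edgeR adjusted p = 0.000207), although the call was lost in 4 of 9 fits that left out a library, which gave 0.92 to 1.17. Neither matched Il10 -126, so the loss seen there in both inbred strains has no like-for-like value in the hybrid.

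Il19 showed a peak upstream of its annotated start, inside the span of the gene, that was open after LPS and had few or no tags in controls. Il19 -363 had 70.3, 102, 102, 70.9 and 80.0 in CB6F1/J LPS, against 3.76, 2.79, 0 and 0 in CB6F1/J control (log2 ratio 5.53 ± 0.58, edgeR adjusted p = 1.68e-08). Il19 +100, at the annotated start, was also called higher. Its log2 ratio was 1.51 to 2.61 in the fits that left out a library, and the call was lost in 5 of 9. Il19 -12542, Il20 -7150 and Il20 -7510 rose by log2 ratios of 3.68, 2.58 and 2.35. Il24, which encodes a cytokine best known for effects on tumour cells and keratinocytes, had its only peaks downstream of the gene, inside the neighbouring gene Fcmr. Il24 +10249 and Il24 +9131 had log2 ratios of −0.24 ± 0.65 and 0.16 ± 0.74 and were not called. At the Il10ra start, Il10ra +142 had 20.4, 39.8, 32.2, 12.3 and 29.9 in CB6F1/J LPS, against 258, 162, 221 and 193 in CB6F1/J control, a log2 ratio of −2.96 ± 0.29 (edgeR adjusted p = 5.32e-09). Il10rb -12865 had 367, 277, 266, 363 and 263 in CB6F1/J LPS, against 14.1, 1.4, 1.28 and 40.5 in CB6F1/J control (log2 ratio 4.35 ± 0.42), and the downstream peak Il10rb +27474 rose by 1.67 ± 0.15.

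Of the 38 matched peaks, 10 were called higher in C57BL/6J, BALB/cJ and CB6F1/J alike. A further 3 were higher in C57BL/6J and CB6F1/J, 4 in BALB/cJ and CB6F1/J and 6 in CB6F1/J alone. In an inbred strain without CB6F1/J, 0 were called higher. The CB6F1/J libraries held more tags in peaks than every inbred library but BALB/cJ control replicate 4, and the CB6F1/J LPS group was larger. Calls in CB6F1/J alone therefore cannot be read as a difference between genotypes. Among losses, 3 matched peaks were called in CB6F1/J and 3 in an inbred strain. Of all tested peaks, 12.3% were called higher in C57BL/6J, 16.2% in BALB/cJ and 14.3% in CB6F1/J. The shares called lower were 8.07%, 11.3% and 10.5%. How often such calls coincide over all matched peaks was not counted.

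**Figure D4:**
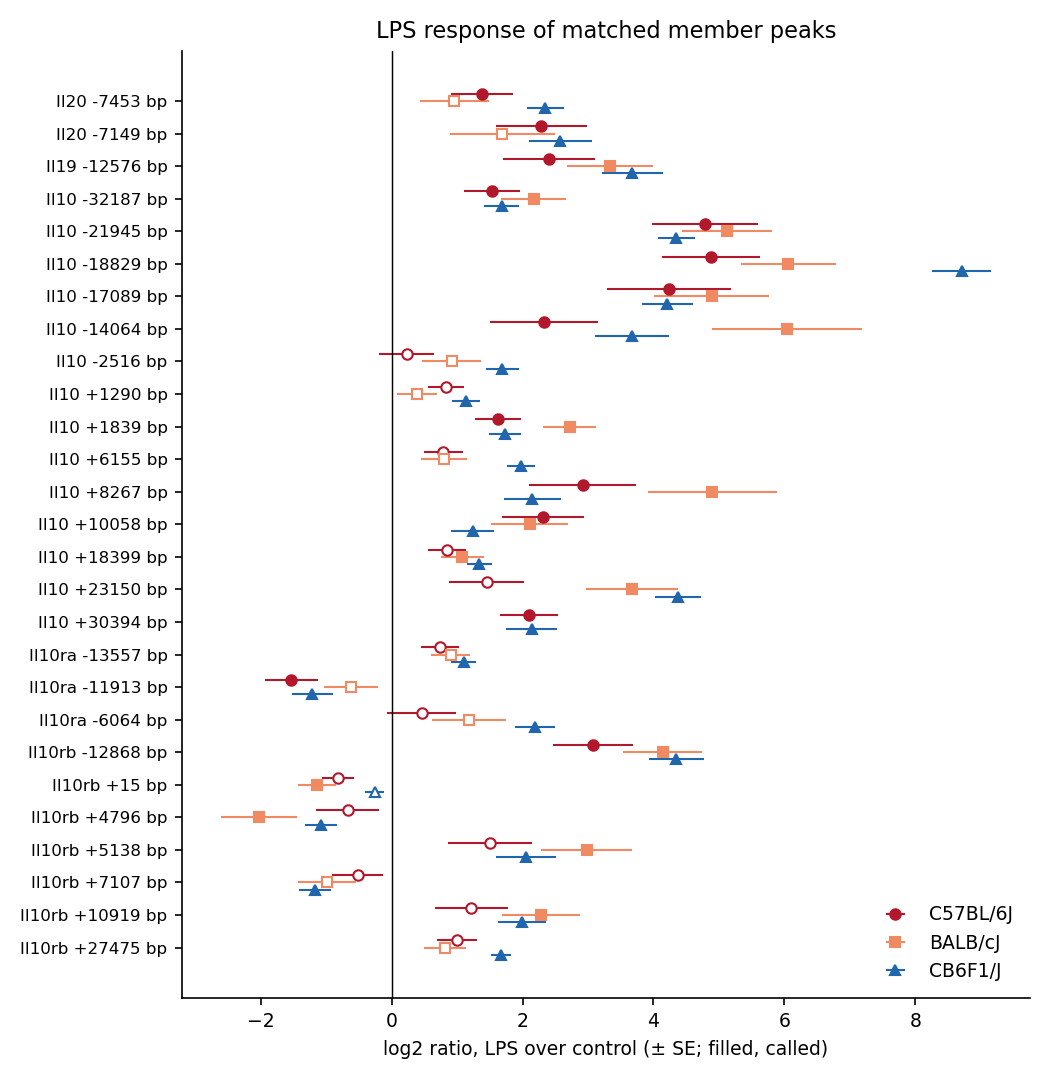
Log2 ratio of LPS over control (± SE) at the matched peaks called in any of C57BL/6J, BALB/cJ and CB6F1/J, with filled symbols for called values. The 10 peaks filled on the right for all 3 genotypes include Il10 -21945 and Il10 -18829, and the BALB/cJ value at Il10 -14064 is plotted although its controls held 0.5 tags in all.

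In control Kupffer cells, these peaks were called between strains at shares near those of all tested peaks. A/J against BALB/cJ gave 1 call of 23 peaks tested (background 4.58%), A/J against C57BL/6J 2 of 25 (7.16%) and C57BL/6J against BALB/cJ 1 of 23 (7.29%). Il10rb +7107 had 23.1, 17.5, 12.2 and 15.6 in A/J control, against 23.7, 28.3, 61.7 and 51.0 in BALB/cJ control (log2 ratio −1.26 ± 0.37, edgeR adjusted p = 0.0346). Il10rb -7106 had 18.5, 13.1, 14.2 and 7.82 in A/J control, against 25.5, 28.9, 32.5 and 34.6 in C57BL/6J control (−1.17 ± 0.37, adjusted p = 0.0374). Both were lower in every A/J library.

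Il10ra -3235, upstream of the receptor gene, had 102, 132, 83.4 and 48.5 in A/J control, against 53.3, 56.2, 42.9 and 29.3 in C57BL/6J control, with a log2 ratio of 1.01 ± 0.29 (edgeR adjusted p = 0.0201) and overlapping groups. Il10 +1839 was higher in C57BL/6J control than in BALB/cJ control (log2 ratio 1.16 ± 0.37, adjusted p = 0.0411), again with overlap. Each of these 4 calls was lost in 4 or more of the 8 fits that left out a library.

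Between strains after LPS, 2 of 38 peaks were called (background 5.28%). Il10ra -3235 had 22.5, 39.1 and 27.1 in C57BL/6J LPS, against 78.4 and 74.7 in BALB/cJ LPS (log2 ratio −1.35 ± 0.37, edgeR adjusted p = 0.0203). That call was lost in 4 of 5 fits that left out a library, including the fit without C57BL/6J LPS replicate 1. Il10 +30394, in the intergenic stretch between Il10 and Mapkapk2, was the other. Il10 -21945, at −1.24 ± 0.59 (adjusted p = 0.240), was called without C57BL/6J LPS replicate 3 (−2.28 ± 0.69, adjusted p = 0.0407). The strain difference in the LPS response was called at 0 of 50 peaks by edgeR and by DESeq2, where edgeR called 0.145% of all tested peaks. An unadjusted p under 0.05 by edgeR was found at 3 of the 50, against 7.87% of all tested peaks.

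Il10 +30394 was open in C57BL/6J and close to absent in BALB/cJ. It had 30.9, 58.6 and 78.1 in C57BL/6J LPS, against 1.74 and 3.52 in BALB/cJ LPS, and the log2 ratio was 4.38 ± 0.69 (edgeR adjusted p = 3.11e-05). Control libraries had 7.71, 8.75, 4.07 and 11.0 for A/J, 15.7, 6.42, 19.5 and 9.31 for C57BL/6J and 1.32, 0, 0 and 2.03 for BALB/cJ. Every A/J and C57BL/6J library exceeded every BALB/cJ library, LPS or control. Mean counts in controls were under the minimum of 16 for strain tests. With no minimum, C57BL/6J control exceeded BALB/cJ control by a log2 ratio of 3.13 ± 0.55 (adjusted p = 0.000118) and A/J control exceeded BALB/cJ control by 2.43 ± 0.61 (adjusted p = 0.012). Within C57BL/6J, LPS raised it by 2.10 ± 0.44 (adjusted p = 0.000549), and within BALB/cJ its count was too low for the test. The call between strains after LPS held in each of the 5 fits that left out a library, with log2 ratios from 4.01 to 4.99. The neighbouring Il10 +30856 was also called higher after LPS in C57BL/6J. Its log2 ratio was 1.58 to 2.33 in the fits that left out a library, and the call was lost in 4 of 7. Between strains after LPS it was not tested, and it averaged 16.5 ± 1.56 in C57BL/6J LPS (SD, n = 3) and 3.94 ± 1.88 in BALB/cJ LPS (n = 2).

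In CB6F1/J, where alleles share cells, library and date, tags over a position that differs between the parental genomes occurred in 10 of 123 peaks (8.13%), against 20.9% of all autosomal peaks. Il10 held 8 of the 10, and Il24 and Il10ra 1 each. On the sum of both alleles, 3 of 6 tested peaks were higher and 0 lower in CB6F1/J LPS than in CB6F1/J control (backgrounds 14.4% and 11.8%). These were Il10 +23067 (log2 ratio 3.51 ± 0.36), Il10 +30336 (1.95 ± 0.58) and Il10 +10604, which had 0 tags in every control and a mean of 10 normalised counts after LPS, at least 11.4-fold higher than a floor of 3 tags over the control group. With perfectly mapped tags, Il10 +10604 was not called on the C57BL/6J genome and was called on the BALB/cJ genome. Alleles could be tested at the minimum count at 0 peaks in controls (background 11.5%) and at 1 peak after LPS (15.4%). That peak, Il10 +23067, had 76, 59.5, 29.5, 92.5 and 41.5 tags on the C57BL/6J allele, against 87, 87.5, 20.5, 123 and 47 on the BALB/cJ allele of the same animals, a log2 ratio of −0.22 ± 0.45 that was not called. The share of the C57BL/6J allele was 45% in all, 43.7% in the animals of the earlier LPS date and 46.2% in those of the later.

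At Il10 +30336, which overlaps Il10 +30394, the alleles were unequal in every LPS animal. The C57BL/6J allele had 27, 30, 36.5, 31 and 39.5 tags in CB6F1/J LPS, against 0.5, 0, 1, 0.5 and 1 on the BALB/cJ allele, a total of 164 tags against 3, or 98.2% from the C57BL/6J allele. The share was 99.1% in the animals of the earlier date and 97.7% in those of the later. In CB6F1/J control the C57BL/6J allele had 8.5, 0, 6 and 7.5 tags, against 2, 0, 2 and 0 on the BALB/cJ allele. The mean count of both alleles was under 16, so the peak was outside the allele test. With no minimum the log2 ratio of the C57BL/6J allele over the BALB/cJ allele was 5.12 ± 0.55 after LPS (edgeR adjusted p = 0.003) and 2.39 ± 0.71 in controls (adjusted p = 0.236). The difference between alleles in the response was called at 0 of 3 peaks by edgeR, where 0% of all tested peaks were called. An unadjusted p under 0.05 by edgeR was found at 1 of the 3, Il10 +30336, against 7.78% of all tested peaks. Whether tags of the BALB/cJ sequence can be placed at this peak as well as those of C57BL/6J was not tested.

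**Figure D5:**
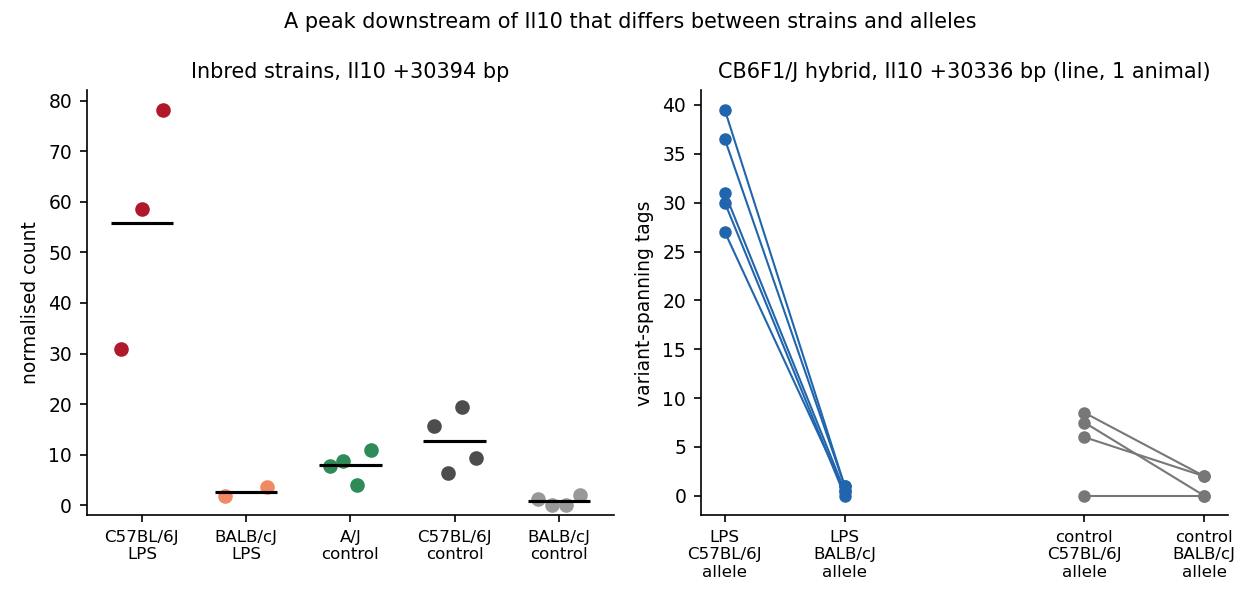
Normalised count in each inbred library at Il10 +30394, by group, and variant-spanning tags of each CB6F1/J animal on the C57BL/6J and BALB/cJ alleles at the overlapping Il10 +30336. Each point is 1 library or 1 allele of 1 animal. After LPS the C57BL/6J allele has 27 to 39.5 tags and the BALB/cJ allele 0 to 1, and the inbred C57BL/6J LPS libraries have 30.9 to 78.1 against 1.74 and 3.52 in BALB/cJ LPS.

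The deposited peak lists of single libraries show where the authors called these elements open. Of the 50 inbred peaks, 32 were present in all C57BL/6J LPS libraries and 45 in both BALB/cJ LPS libraries, against 26 in all C57BL/6J control, 27 in all BALB/cJ control and 24 in all A/J control libraries, at an overlap of at least 1 bp. More libraries per group lower such a count, and depth differed between libraries. The same counts over all peaks were not made, so these are a description of the listed peaks only.

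Genes that act in or after IL-10 receptor signalling were counted over all peaks assigned to 11 genes (Jak1, Tyk2, Stat3, Socs3, Bcl3, Nfil3, Sbno2, Etv3, Tnip3, Hmox1 and Il4ra). In C57BL/6J 33 of 160 peaks were higher, 4 lower and 123 not called (median log2 ratio 0.33, against −0.03 over all tested peaks), where 12.3% of all tested peaks were higher and 8.07% lower. In BALB/cJ 54 of 160 were higher, 6 lower and 100 not called (0.56, against −0.07), where 16.2% of all tested peaks were higher and 11.3% lower. These 2 pairs of shares are the background for the lists that follow as well. Socs3, a feedback inhibitor of cytokine receptors and a STAT3 target, had 8 of 23 peaks higher in C57BL/6J and 10 of 22 in BALB/cJ. Il4ra, the IL-4 receptor chain, rose at Il4ra -12763 by 3.49 ± 0.49 in C57BL/6J and 4.76 ± 0.49 in BALB/cJ. Nfil3, a repressor induced by IL-10 signalling, had 4 of 9 and 8 of 10 peaks higher. Jak1 had 2 higher and 2 lower of 22 in C57BL/6J.

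For 11 genes whose products act on Il10 transcription, 58 of 308 peaks were higher and 32 lower in C57BL/6J (median 0.02; all peaks 12.3% higher and 8.07% lower), and 71 of 317 higher and 40 lower in BALB/cJ (−0.03; all peaks 16.2% and 11.3%), so that the lower calls were near the background share in both strains. Maf, a transcription factor that binds Il10 in macrophages and T cells, had 11 of 58 peaks higher and 2 lower in C57BL/6J and 15 of 60 higher and 2 lower in BALB/cJ. Nfkb1, an NF-kB subunit, had 11 of 30 and 12 of 29 higher. The promoters of Rel and Irf5 were lower, with log2 ratios of −1.60 (C57BL/6J) and −1.84 (BALB/cJ) at Rel, an NF-kB subunit, and of −2.60 and −2.42 at Irf5, an interferon regulatory factor. Among 8 other class II cytokine and receptor genes with peaks, 9 of 57 were higher and 1 lower in C57BL/6J and 9 of 58 higher and 5 lower in BALB/cJ, so that the higher calls were close to the 12.3% and 16.2% of all tested peaks. Il20rb -2710 had log2 ratios of 3.59 ± 0.40 in C57BL/6J and 3.36 ± 0.36 in BALB/cJ. For the chromosomal neighbours of the 6 genes, 12 of 120 peaks were higher and 8 lower in C57BL/6J (median −0.14), and 12 higher and 16 lower in BALB/cJ (−0.41), against 12.3% higher and 8.07% lower, and 16.2% higher and 11.3% lower, of all tested peaks.

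Among 15996 promoter peaks of other genes, those whose log2(normalised count + 1) followed Il10 -126 most closely over the 17 inbred libraries were Nudt3 and Il6ra (Pearson r = 0.94 each) and Uspl1, Rad52 and Mdm2 (0.93 each). For Il10 -18829 they were Dnmt3aos (0.94) and Vash2, Tspo, Rb1cc1 and Slc22a4 (0.93 each). These libraries share treatment and date groups, and the values are a description.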

How the data were processed

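ATAC-seq libraries of 26 mice were used. Per the paper's methods and the labels, the authors aligned reads with Bowtie2 to strain genomes built on mm10, made tag directories and peaks with HOMER and merged peaks reproducible between replicates by IDR. In the deposited inbred table the LPS columns are counts, while the control columns are expected counts that move in steps of 0.5 tags, and the deposited hybrid table holds expected counts of perfectly mapped and of variant-spanning tags on each parental genome. The deposited peak files carry a signal (normalised tag count), and the IDR lists carry a score set by the authors. The methods describe counting in wider windows, but the table counts matched those of the 200-base peaks in the peak files. No column was left without a sample.

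Values of 0.5 tags were rounded up. edgeR 4.0.16 (R 4.3.3; TMM, quasi-likelihood test) was fitted to all 17 inbred libraries in 1 model and, for the hybrid, to both alleles summed or to alleles with a term for the animal. Peaks were tested at a mean normalised count above 16 (strains, alleles) or above 4 (LPS and differences in response), with Benjamini-Hochberg adjustment over all tested peaks, and called at an adjusted p under 0.05 and an absolute log2 ratio over 1. An SE is the log2 ratio divided by the square root of F. DESeq2 1.42.0, other minima, other rounding, total-count scaling, a replicate block and leaving out each library were alternatives. The fits were tested on simulated data. Replicates are separate samples by the labels, and p-values measure the spread between them.

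The 6 genes, the lists and the rule for named peaks were chosen with earlier results of these data known. The rule names the peak nearest each start, the most accessible peak of each gene and every called peak, and the rest are given by range and count. Of the hybrid peaks called with perfectly mapped tags, only some are named here and the others are given by count. Matching to RefSeq promoter windows covered Il20 and Il19 and was not used. Sequences are from the GRCm38 assembly, and that of 1 peak is not reported here. Floors cover counting error only.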

Additional observations from a re-analysis of the deposited data

Results flagged for a closer look

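Of 186 sets of a named peak and a group of 4 or 5 libraries, 14 (7.53%) held a library far from the others, and chance gives about 1 in 20. In 6 of them a single library stood above others at 0 normalised counts: 1.09 in A/J control replicate 2 at Il10 -21945, 0.921 in BALB/cJ control replicate 4 at Il10 -18829, 1.56 in A/J control replicate 4 at Il19 -12576, 1.54 in A/J control replicate 1 and 1.32 in BALB/cJ control replicate 1 at Il10 -14064, and 2.79 in CB6F1/J control replicate 2 at Il10 -18777. At Il10ra +3, BALB/cJ control replicate 2 had 165, against 61.7 to 77.8 in the others of its group. At Il10 +23150, BALB/cJ control replicate 1 had 18.5, against 0 to 1.95. At Il20 -7453, C57BL/6J control replicate 3 had 27.3, against 6.42 to 7.54. In the hybrid (perfectly mapped tags), Il19 -12542 had 47.8 in CB6F1/J LPS replicate 3, against 130 to 160. Il10 +1806 had 186 in LPS replicate 5, against 274 to 297. Il10 -19250 had 5.43 in LPS replicate 2, against 23.9 to 31. Il10rb +4817 had 86.3 in LPS replicate 4, against 57.8 to 63.5, and Il10 -20729 had 16.7 in CB6F1/J control replicate 3, against 0 to 1.88.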

How the results depend on the processing

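With no minimum count, the peaks called became 2 instead of 1 for A/J against BALB/cJ control, 4 instead of 1 for C57BL/6J against BALB/cJ control and 1 instead of 0 between alleles in CB6F1/J LPS, because more peaks were tested. With the minimum doubled, they became 0, 0 and, for A/J against C57BL/6J control, 1 instead of 2. With the replicate number as a block, A/J against C57BL/6J control gave 1, C57BL/6J LPS against BALB/cJ LPS gave 3 instead of 2 (with Il10 -21945 at −2.33 ± 0.62, edgeR adjusted p = 0.00981), and Il10ra -9184 was called higher in BALB/cJ LPS (1.67 ± 0.58, adjusted p = 0.0219), and the cause was not tested. Same-numbered A/J and BALB/cJ control libraries correlated at 0.05 to 0.38 in their deviations, not every set of pairs passed 0.1, and the numbers were not taken to pair the samples. CB6F1/J LPS gave 49 called peaks with perfectly mapped tags on the C57BL/6J genome and 50 on the BALB/cJ genome, against 3 on variant-spanning tags, which cover fewer peaks. The BALB/cJ allele had 1 peak in all CB6F1/J LPS peak files at an overlap of 50%, against 2 at 1 bp. Leaving out 1 library gave 0 to 1 (A/J against BALB/cJ control), 0 to 1 (A/J against C57BL/6J control), 0 to 2 (C57BL/6J against BALB/cJ control), 9 to 24 (C57BL/6J LPS), 11 to 21 (BALB/cJ LPS), 1 to 2 (C57BL/6J LPS against BALB/cJ LPS), 0 to 1 (strain difference in response, with Il10 +23150 at −3.82 without BALB/cJ control replicate 1), 2 to 3 (CB6F1/J LPS), 0 (allele comparisons) and 40 to 49 (perfectly mapped tags). Of 1019 recomputed ratios of named peaks, 895 kept direction and call, 124 kept direction and lost the call (118 of them on leaving out a library) and 0 reversed. Total-count scaling moved the median ratio of these peaks by 0.11 in C57BL/6J LPS and 0.12 in BALB/cJ LPS. Low counts in controls and groups of 2 and 3 LPS libraries limit the precision.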
